A study of Mus musculus with 64 samples.

Results

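Microglia sense damage and neuronal activity through extracellular nucleotides. ATP released by cells opens the ionotropic P2X receptors. ADP, UDP and adenosine act on the metabotropic P2Y and adenosine receptors, and the membrane enzyme CD39 cleaves ATP and ADP step by step to AMP. Resting potassium conductance sets how far the fine processes of microglia extend and retract, and other channels carry protons and calcium across the membrane.

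Described here are 10 genes of this system of 49671 in the count table: the CD39 gene Entpd1, the P2Y receptor genes P2ry13 and P2ry6, the P2X receptor genes P2rx4 and P2rx7, the adenosine receptor gene Adora3, the potassium channel genes Kcnk13 and Kcnk6, the proton channel gene Hvcn1 and the cation channel gene Trpv2. They were chosen by name for their part in nucleotide sensing and process motility, and all 10 matched a row of the table. Total RNA was sequenced from microglia of adult male C57BL/6 mice (C57BL6/N in the study's methods), taken from hippocampus or frontal cortex with magnetic beads against CD11b, a surface protein that border macrophages, monocytes and neutrophils carry as well. The 64 libraries formed 16 groups of 4, given by region, phase (Day or Night) and condition (Soci, Cogn, Ctr0 or Ctr1), with 16 libraries per region and phase. The labels do not say what the condition names stand for, and nothing stated that replicates came from separate animals, so the p-values measure the spread between these libraries.

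Total counts ran from 10.2 to 84.5 M per library, with a median of 17.6 M in hippocampus and 13.4 M in frontal cortex, and the lowest count of any of the 10 genes in any library was 275. The mice lived in a reversed light cycle. The study states that microglia were taken at 1 set time in the light and 1 in the dark phase. The labels do not say whether Day names the light phase or the hours of the day. The clock genes Per2 and Cry1 were higher in Day libraries, with log2 changes of 1.12 ± 0.14 and 1.29 ± 0.09 (± SE) in hippocampus, while Nr1d1, which encodes a clock repressor, was lower at -1.87 ± 0.21. Day and Night are therefore used as names of the libraries, with no direction in relation to light. All 19 microglia marker genes were detected in every set of libraries, and their summed level was above that of each other cell type's markers in the medians of all 4 region and phase sets. The border macrophage markers were present too, with medians of 875 to 1352 CPM over 12 genes. CPM is a gene's count as a share of its library's total, set to a common library size of 1000000 by TMM scaling, and all levels are given in it.

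Between Day and Night, the same 5 of the 10 genes changed in both regions, all toward higher levels in Day. Entpd1 rose 1.70-fold in hippocampus and 1.63-fold in frontal cortex, and Kcnk6 rose 1.49-fold and 1.47-fold. The rises of P2ry6, P2rx7 and Adora3 were between 1.08-fold and 1.21-fold, and none of them was called as a rise relative to the microglia marker genes. With TMM scaling, P2ry13, P2rx4, Kcnk13, Hvcn1 and Trpv2 did not pass the test in either region. Of all genes tested, 42.2% were called in hippocampus and 41.8% in frontal cortex, and 23.4% and 20.6% were called higher in Day. The 5 called of 10 were thus close to the share of all genes, and the 5 higher in Day were above it. Of 19 microglia markers, 14 and 12 were called higher in Day, so that excess is not read as a trait of the 10 genes. The share of all genes called in both regions is not given here, so the overlap is not read as a trait of these genes. The median log2 change of the 10 genes was 0.18 in hippocampus and 0.13 in frontal cortex, beside 0.02 and -0.02 over all genes tested.

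**Figure D1:**
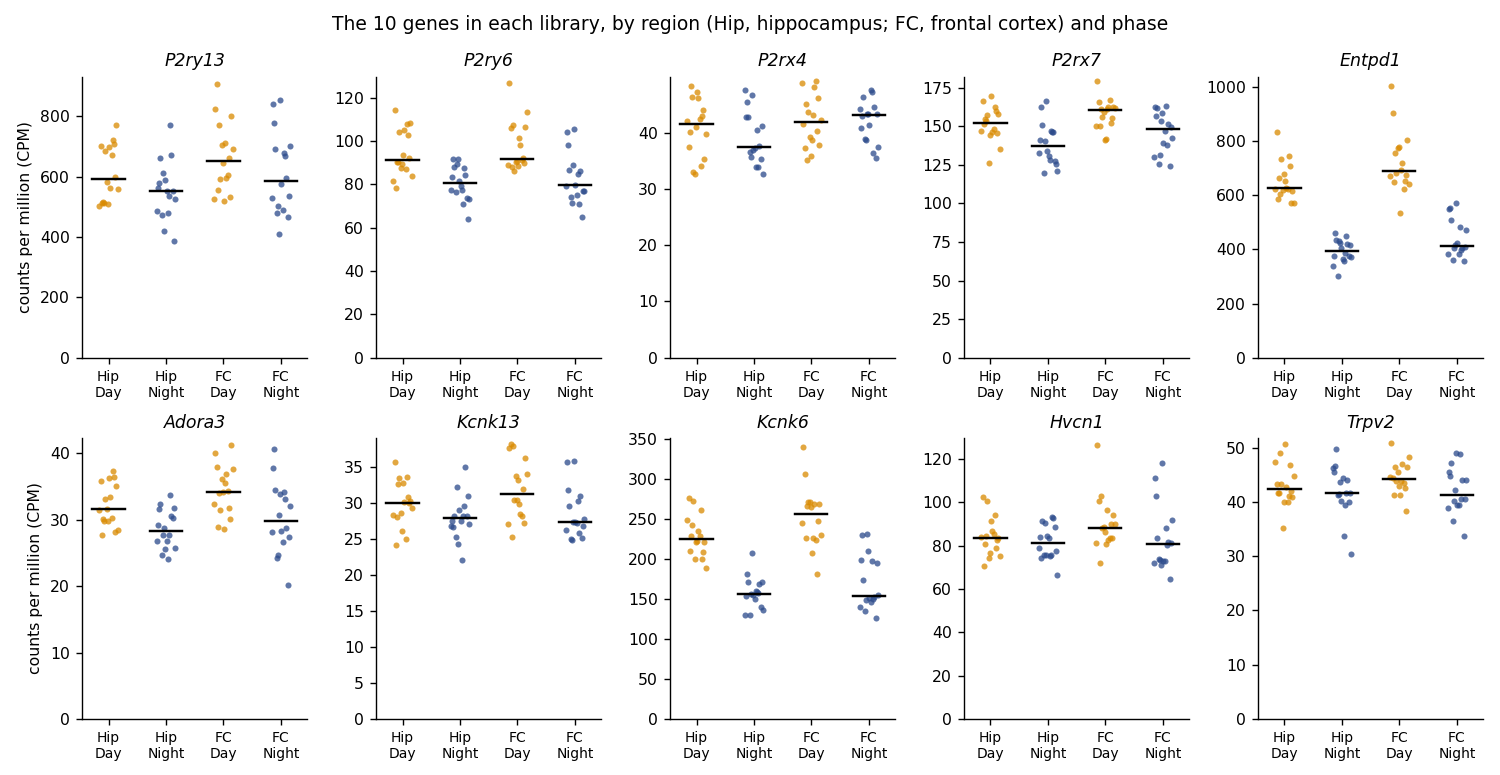
Level of each of the 10 genes in every library, in CPM on axes that start at 0, with Day in orange, Night in blue and a bar at the median of 16 libraries. For Entpd1 every hippocampal Day library lies above every Night library, while the sets of P2rx4, Hvcn1 and Trpv2 overlap over most of their range.

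Entpd1 encodes CD39, the ectonucleotidase that removes ATP and ADP from the cell surface. In hippocampus its level ran from 569 to 833 CPM in Day libraries with a median of 626, and from 300.1 to 461 CPM in Night libraries with a median of 396. In frontal cortex it ran from 532 to 1002 CPM in Day with a median of 689, and from 358 to 571 CPM in Night with a median of 411. The hippocampal sets did not overlap, and in frontal cortex all but 1 Day library stood above every Night library. The log2 change was 0.76 ± 0.06 in hippocampus (SE, adjusted p = 1.5e-11, quasi-likelihood test of edgeR) and 0.70 ± 0.08 in frontal cortex (adjusted p = 3.9e-08). Scaled to the 19 microglia marker genes instead of all genes, Entpd1 remained called, at 0.52 ± 0.04 and 0.45 ± 0.03.

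The RefSeq promoter table (build GRCm38.p6) held 11 windows for 7 of the 10 genes, namely P2ry13, P2rx4, P2rx7, Entpd1, Adora3, Kcnk13 and Trpv2. The 250 bases before the start site were searched on both strands for the E-box CACGTG and the D-box TTATGTAA of the clock factors, the half-site AGGTCA of the ROR and REV-ERB receptors, and the core GAGGAA of PU.1, the factor that specifies the myeloid lineage, with its longer form GAGGAAGT, which contains the core. No E-box or D-box stood in any of the 11 windows, beside 6.021% and 0.8188% of 32851 windows of the same length. The half-site AGGTCA stood in 1 window each of P2rx4 and P2rx7, beside 14.02% of all windows. The core GAGGAA stood in the second Entpd1 window, in the windows of P2ry13, Adora3 and Kcnk13, and in windows 1 and 2 of Trpv2 but not window 3. Of all windows, 23.25% held it. Its longer form stood in the window of Adora3 and in windows 1 and 2 of Trpv2, beside 2.441% of all windows. Those Trpv2 windows overlap and hold the same site. A match is only a run of letters, and no binding was measured here. Both Entpd1 windows are printed because this gene had the largest change, and Adora3 as a second gene that rose. P2ry13 and Kcnk13 are printed as genes that did not pass the test, while their relatives P2ry6 and Kcnk6, which rose, had no window. Matches are in capitals, and each window is read 5′ to 3′ on the strand of its gene. The first Entpd1 window is chr19:40612116-40612365 and the second chr19:40659520-40659769, both on the plus strand, before the start sites of alternative transcripts. The Adora3 window is chr3:105904171-105904420 on the plus strand, that of P2ry13 chr3:59210883-59211132 on the minus strand, and that of Kcnk13 chr12:99964249-99964498 on the plus strand.
Entpd1 first start: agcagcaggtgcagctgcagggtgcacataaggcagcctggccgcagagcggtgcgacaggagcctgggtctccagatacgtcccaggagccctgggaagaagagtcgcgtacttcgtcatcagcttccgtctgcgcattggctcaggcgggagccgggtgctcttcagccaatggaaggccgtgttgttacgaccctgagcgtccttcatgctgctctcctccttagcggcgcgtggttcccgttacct
Entpd1 second start: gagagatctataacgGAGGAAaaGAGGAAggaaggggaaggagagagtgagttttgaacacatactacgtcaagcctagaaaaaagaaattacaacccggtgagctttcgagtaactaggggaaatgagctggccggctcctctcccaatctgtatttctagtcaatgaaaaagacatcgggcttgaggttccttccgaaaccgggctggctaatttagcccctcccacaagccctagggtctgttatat
Adora3: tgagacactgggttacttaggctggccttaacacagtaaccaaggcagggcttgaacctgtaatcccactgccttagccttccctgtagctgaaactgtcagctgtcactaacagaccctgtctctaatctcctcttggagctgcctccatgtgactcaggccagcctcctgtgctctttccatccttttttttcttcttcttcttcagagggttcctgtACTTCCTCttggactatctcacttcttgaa
P2ry13: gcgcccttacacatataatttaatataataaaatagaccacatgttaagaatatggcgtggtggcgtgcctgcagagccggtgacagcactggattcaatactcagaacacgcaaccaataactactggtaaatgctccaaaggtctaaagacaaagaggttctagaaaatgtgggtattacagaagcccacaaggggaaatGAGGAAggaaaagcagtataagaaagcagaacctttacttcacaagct
Kcnk13: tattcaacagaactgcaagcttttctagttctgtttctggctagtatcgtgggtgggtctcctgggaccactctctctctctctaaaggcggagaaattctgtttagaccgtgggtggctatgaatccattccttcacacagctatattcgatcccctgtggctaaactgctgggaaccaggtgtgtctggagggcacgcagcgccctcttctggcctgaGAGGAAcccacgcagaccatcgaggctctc
The first Entpd1 window held none of the motifs, had 62.4% G and C and 18 CG pairs, while the second held the GAGGAA core at 2 places and had 47.2% G and C and 8 CG pairs. The median over all windows was 52.4% G and C and 6 CG pairs. Gene counts do not tell transcripts apart, so the start site that carried the change cannot be told.

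Kcnk6 encodes TWIK-2, a potassium channel with a pair of pore domains that lets potassium leave the cell. In hippocampus it ran from 188 to 276 CPM in Day libraries with a median of 226, and from 130.0 to 208 CPM in Night libraries with a median of 157. In frontal cortex it ran from 181 to 341 CPM in Day with a median of 257, and from 126 to 232 CPM in Night with a median of 154. The sets overlapped at their edges, with 13 of 16 hippocampal Day libraries and 10 of 16 cortical ones above every Night library. The log2 change was 0.57 ± 0.06 in hippocampus (SE, edgeR adjusted p = 7.2e-09) and 0.56 ± 0.09 in frontal cortex (adjusted p = 7.6e-06), and relative to the microglia marker genes it was 0.32 ± 0.05 and 0.30 ± 0.06.

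Kcnk13 encodes THIK-1, the channel of the same family known for the resting potassium conductance of microglia and for process surveillance. Its level ran from 24.2 to 35.6 CPM in hippocampal Day libraries with a median of 30.0, and from 22.0 to 35.0 CPM in Night libraries with a median of 27.9. In frontal cortex the medians were 31.2 and 27.4 CPM, and in both regions the sets overlapped over most of their range. The log2 difference was 0.13 ± 0.06 in hippocampus (SE, edgeR adjusted p = 0.058) and 0.15 ± 0.06 in frontal cortex (adjusted p = 0.053).

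A ratio of 2 genes within a library does not depend on how libraries are scaled. The ratios below were chosen after the values of the 10 genes were seen, so they are a description with no test. The level of Kcnk6 per kilobase of exon was 4.81 to 6.89 times that of Kcnk13 in hippocampal Day libraries, with a median of 5.82, and 3.61 to 6.41 times in Night libraries, with a median of 4.06. The mean ratio was higher in Day by 0.44 on the log2 scale in hippocampus and by 0.42 in frontal cortex. The ratio of Entpd1 to P2ry13 had medians of 0.482 in Day and 0.313 in Night in hippocampus and of 0.482 and 0.330 in frontal cortex, a difference of mean log2 ratios of 0.58 in each region. The ratio of P2ry6 to P2ry13 differed by 0.08 in hippocampus and 0.11 in frontal cortex on the log2 scale, and that of P2rx7 to P2rx4 by 0.07 and 0.12.

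P2ry13 encodes an ADP receptor that, like P2ry12, couples to inhibitory G proteins, and it lies within Med12l on the opposite strand. Its level in hippocampus ran from 504 to 772 CPM in Day libraries with a median of 591, and from 388 to 773 CPM in Night libraries with a median of 554. In frontal cortex the Day range was 520.3 to 906 CPM and the Night range 412 to 853 CPM, with medians of 653 and 585. The sets overlapped over most of their range, and in each region 5 of 16 Night libraries stood below every Day library. The log2 difference was 0.18 ± 0.08 in hippocampus (SE, edgeR adjusted p = 0.070) and 0.12 ± 0.10 in frontal cortex (adjusted p = 0.35). It had the highest median spread within the 16 groups of all 10 genes, with a coefficient of variation of 16.8%.

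P2ry6 encodes the UDP receptor that triggers phagocytosis by microglia. In hippocampus it ran from 78.4 to 114 CPM in Day libraries with a median of 91.2, and from 64.1 to 91.6 CPM in Night libraries with a median of 80.4. In frontal cortex it ran from 86.0 to 127 CPM in Day with a median of 91.6, and from 64.9 to 106 CPM in Night with a median of 79.5. Of the 16 Day libraries, 8 in hippocampus stood above every Night library, and in frontal cortex 11 Night libraries stood below every Day library. The log2 change was 0.27 ± 0.06 in hippocampus (SE, edgeR adjusted p = 0.00018) and 0.24 ± 0.06 in frontal cortex (adjusted p = 0.0033), while relative to the microglia marker genes it was 0.02 ± 0.04 and, with its direction turned, -0.02 ± 0.04.

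P2rx7 and P2rx4 lie next to each other on chromosome 5, on the same strand. P2rx7 encodes the receptor that needs high ATP and drives inflammasome activation, and its hippocampal level ran from 126 to 170 CPM in Day libraries with a median of 152 and from 120 to 167 CPM in Night libraries with a median of 137. In frontal cortex the ranges were 141 to 179 CPM in Day and 124 to 163 CPM in Night, with medians of 160 and 148. The sets overlapped in both regions, with the Night sets reaching lower. The log2 change of P2rx7 was 0.17 ± 0.05 in hippocampus (SE, edgeR adjusted p = 0.0038) and 0.11 ± 0.04 in frontal cortex (adjusted p = 0.028). Relative to the microglia marker genes its direction turned, to -0.08 ± 0.04 and -0.15 ± 0.05. The cortical value was then called as lower in Day, as were most calls over all genes under that scaling. The call of P2rx7 was lost in both regions when the libraries numbered 1 or those numbered 2 were left out, at 0.09 and 0.11 in hippocampus and 0.10 and 0.08 in frontal cortex.

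P2rx4 encodes a receptor that opens at lower ATP than that of P2rx7 and is known for its role in pain after nerve injury. Its level ran from 32.7 to 48.3 CPM in hippocampal Day libraries with a median of 41.6, and from 32.6 to 47.6 CPM in Night libraries with a median of 37.5. In frontal cortex it ran from 35.2 to 49.2 CPM in Day with a median of 41.9, and from 35.5 to 47.6 CPM in Night with a median of 43.2. The sets covered almost the same range, although 3 cortical Day libraries stood above every Night library. The log2 difference was 0.10 ± 0.06 in hippocampus (SE, edgeR adjusted p = 0.20) and -0.0028 ± 0.05 in frontal cortex (adjusted p = 0.97), with a 95% interval of -0.10 to 0.09 in the latter.

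Adora3 encodes the A3 adenosine receptor, and 779 of its exon bases overlap Tmigd3 on the same strand, so its counts are uncertain, although Tmigd3 itself had a median of 3 counts. Its level ran from 27.7 to 37.4 CPM in hippocampal Day libraries with a median of 31.6, and from 24.1 to 33.7 CPM in Night libraries with a median of 28.3. In frontal cortex it ran from 28.6 to 41.3 CPM in Day with a median of 34.2, and from 20.2 to 40.6 CPM in Night with a median of 29.8. The sets overlapped, with 5 of 16 Day libraries above every Night library in hippocampus and 1 in frontal cortex. The log2 change was 0.21 ± 0.05 in hippocampus (SE, edgeR adjusted p = 0.0021) and 0.18 ± 0.07 in frontal cortex (adjusted p = 0.046), and relative to the microglia marker genes its direction turned, to -0.04 ± 0.04 and -0.07 ± 0.04. The call was lost without the libraries numbered 1 or 2 in both regions, and in frontal cortex also without those numbered 3, at log2 changes of 0.13 to 0.18.

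Hvcn1 encodes the voltage-gated proton channel that supports the NADPH oxidase, and Trpv2 a calcium-permeable channel of phagocytes. Hvcn1 ran from 70.5 to 102 CPM in hippocampal Day libraries with a median of 83.7 and from 66.5 to 93.0 CPM in Night libraries with a median of 81.3, and in frontal cortex its medians were 88.3 and 80.8 CPM. Trpv2 had medians of 42.5 and 41.6 CPM in hippocampus and of 44.2 and 41.4 CPM in frontal cortex. Both genes overlapped between phases over most of their range, with at most 3 Day libraries above every Night library in a region. Their log2 differences lay between 0.07 and 0.11 in the 2 regions, with edgeR adjusted p-values from 0.19 to 0.27. Relative to the microglia marker genes both were lower in Day and passed the threshold, Hvcn1 at -0.17 ± 0.03 and -0.14 ± 0.03 and Trpv2 at -0.16 ± 0.06 and -0.18 ± 0.04 in hippocampus and frontal cortex. Under that scaling 51.5% of all genes tested in hippocampus and 58.4% in frontal cortex were called lower in Day, with medians over all genes of -0.22 and -0.28, so the values of both genes lay above those medians.

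**Figure D2:**
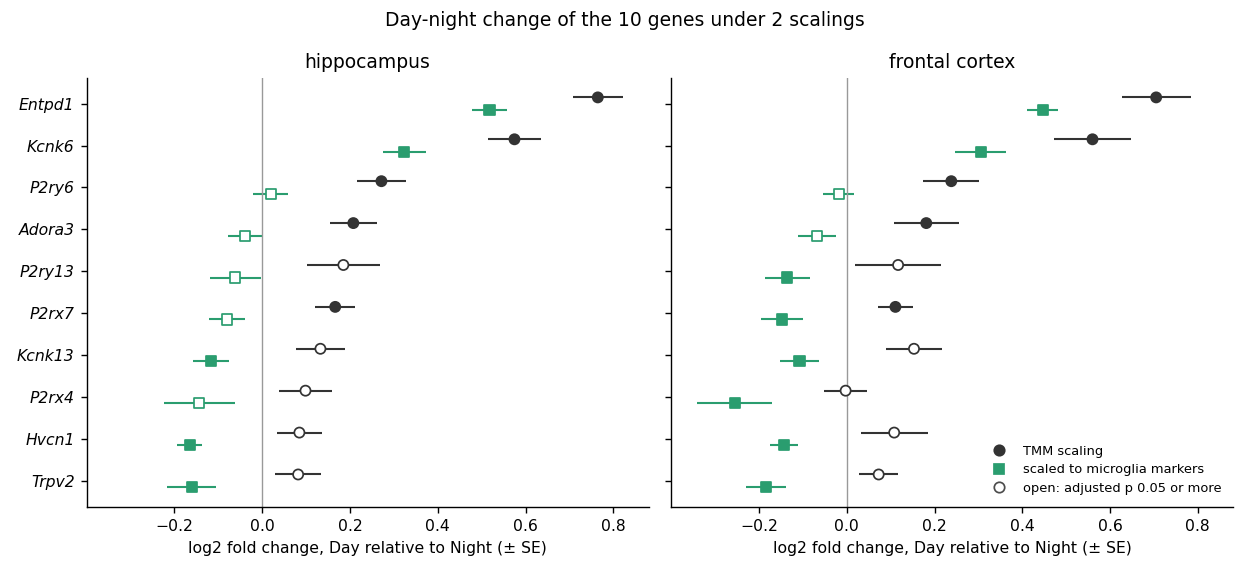
Log2 fold change of each gene, Day relative to Night, with its SE, after scaling by TMM (black circles) or to the microglia marker genes (green squares), where filled symbols have an adjusted p below 0.05. Entpd1 and Kcnk6 are above 0 in both regions under both scalings, whereas the other 8 genes move to near or below 0 under the second.

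The microglia marker genes themselves were higher in Day, with 14 of 19 called in hippocampus and 12 of 19 in frontal cortex and median log2 changes of 0.29 and 0.25. Their summed level ran from 19585 to 27634 CPM in hippocampal Day libraries and from 17024 to 22292 CPM in Night libraries, and from 20375 to 32817 and 15355 to 27418 CPM in frontal cortex. Border macrophage markers were higher in Day as well, with 12 of 12 called in hippocampus and 7 of 12 in frontal cortex and median log2 changes of 0.56 and 0.36, and their summed level ran from 953 to 1519 CPM in Day and from 700.3 to 1140 CPM in Night in hippocampus. Of 9 astrocyte markers, 8 were called lower in Day in each region and 1 higher in hippocampus (Slc1a3, at 0.40), while choroid plexus markers fell in hippocampus with 10 of 10 called and a median of -2.61. Of 10 oligodendrocyte markers, 9 were lower in Day in hippocampus and 6 in frontal cortex, and of 9 endothelial markers 5 and 0. Of 11 tested genes of the dissociation response, 6 were higher and 1 lower in hippocampus, and 3 were higher and 3 lower in frontal cortex. In such bulk samples, fewer cells of a type and less RNA per cell cannot be told apart. With the scores of the 7 other cell types as covariates, Entpd1 was still called, at 0.55 ± 0.12 in hippocampus and 0.70 ± 0.16 in frontal cortex (edgeR adjusted p = 0.017 and 0.0055), while Kcnk6 was not, at 0.27 ± 0.11 and 0.48 ± 0.18 (adjusted p = 0.22 and 0.059). In those fits 1.07% and 16.1% of all genes were called. The part of these cell types in the result of Kcnk6 was not tested beyond that.

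Scaling moved the split of calls over all genes. Among hippocampal calls, 55.5% were higher in Day with TMM, 47.7% with size factors by the median of ratios, 6.18% with library totals alone and 4.93% with the microglia marker genes, where the median over all genes shifted to -0.14 with totals and -0.22 with the marker genes. In frontal cortex the shares were 49.2%, 51.8%, 16.2% and 3.15%, and the medians -0.09 and -0.28 with the last 2 scalings. With totals alone, Entpd1 and Kcnk6 were the 2 genes still called in each region, Entpd1 at 0.60 ± 0.11 and 0.63 ± 0.10 and Kcnk6 at 0.40 ± 0.11 and 0.49 ± 0.11, beside 27.6% and 27.1% called over all genes.

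Within single conditions, where 4 Day libraries met 4 Night libraries, Entpd1 was higher in Day in all 8 combinations of region and condition. Of all genes tested, the hippocampal comparisons called 8.08% in Soci, 5.32% in Cogn, 13.2% in Ctr0 and 12.5% in Ctr1, and the cortical ones 6.51%, 5.86%, 5.47% and 4.35% in the same order. The log2 change of Entpd1 lay between 0.69 and 0.81 in hippocampus and between 0.61 and 0.77 in frontal cortex, with edgeR adjusted p-values from 0.00043 to 0.019. Kcnk6 was called in all 4 conditions of hippocampus, at 0.47 to 0.65, and in Soci and Cogn of frontal cortex, while Ctr0 and Ctr1 of that region gave 0.53 ± 0.17 and 0.57 ± 0.17 (adjusted p = 0.065 and 0.052). P2ry6 was called in hippocampal Ctr0 and Ctr1, at 0.37 ± 0.11 and 0.44 ± 0.11, and Adora3 in hippocampal Ctr0, at 0.34 ± 0.11. None of the 10 genes differed in its day-night change among the 4 conditions in either region, with adjusted p-values of at least 0.999, and 0 genes with an unadjusted p below 0.05. That test called 0 of all 16826 hippocampal genes and 1 of 16238 cortical ones. Without the libraries numbered 2 or those numbered 3, 0 calls within single conditions were left in frontal cortex, Entpd1 included.

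**Figure D3:**
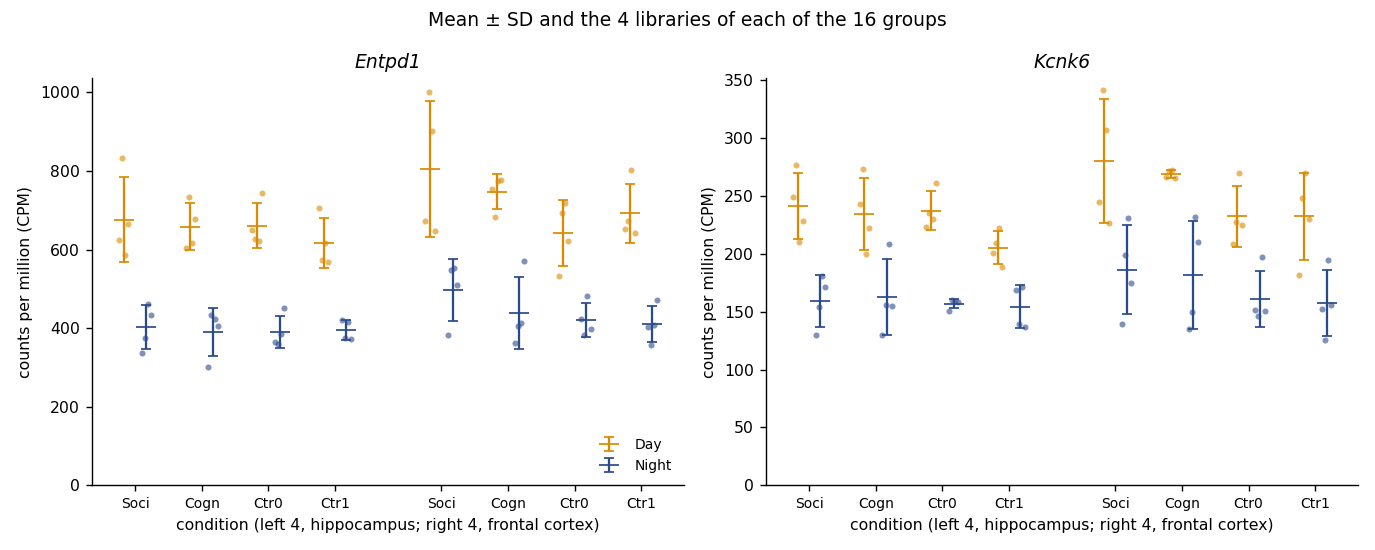
Level of Entpd1 and Kcnk6 in CPM in the 4 libraries of each of the 16 groups, with the mean and SD, Day in orange and Night in blue. In each of the 8 pairs the Day mean lies above the Night mean for both genes, and the highest mean of both is that of the Day libraries of Soci in frontal cortex.

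Over the 16 groups, the mean of Entpd1 ran from 390.2 ± 41.7 CPM (SD, n = 4) in hippocampal Night Ctr0 to 806 ± 174 CPM in cortical Day Soci. In the latter, replicates 1 to 4 stood at 672, 1002, 902 and 647 CPM, so that group held both the highest library and the widest spread. In hippocampal Day libraries the 4 condition means were 677 ± 109 CPM in Soci, 659 ± 59.7 in Cogn, 661 ± 57.5 in Ctr0 and 616 ± 63.97 in Ctr1. These means differed by less than the SD of Soci. The 8 Day means of Entpd1 and of Kcnk6 were the 8 highest of the 16. Kcnk6 ran from 154 ± 18.5 CPM in hippocampal Night Ctr1 to 280.0 ± 53.3 CPM in cortical Day Soci (SD, n = 4). For P2rx4, the Day mean was the higher one in 4 of 8 pairs, and its group means ran from 36.4 to 44.8 CPM. Of the other genes, P2ry6 and P2rx7 had the higher mean in Day in 8 of 8 pairs, Adora3, Kcnk13, Hvcn1 and Trpv2 in 7, and P2ry13 in 6.

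No difference among the 4 conditions passed the test in any of the 10 genes. In the edgeR test over the 4 conditions, 0 of 10 genes were called in either region, with 0 and 1 at an unadjusted p below 0.05, and 0 of all genes were called. With library totals alone, 5 of the 10 genes were called in hippocampus, where 3814 of 16826 genes were. Without the libraries numbered 1, hippocampal tests called 328 genes of all among the 4 conditions, 398 in Soci and Cogn against the controls and 1688 in Soci against Ctr1, with 0 of the 10 genes in each. The contrast of Soci and Cogn with the controls Ctr0 and Ctr1 also called 0 of 10 in each region, beside 0.0238% of all genes in hippocampus and 0.00616% in frontal cortex. Its highest values were those of Kcnk6 and Entpd1 in frontal cortex, 0.23 ± 0.09 and 0.20 ± 0.07 on the log2 scale (edgeR adjusted p = 0.38 for both), with 95% intervals of 0.07 to 0.40 and 0.06 to 0.35, while in hippocampus these genes gave 0.06 ± 0.06 and 0.02 ± 0.06. Among 60 pairwise tests per region (6 pairs of conditions for 10 genes), 0 were called, with 4 at an unadjusted p below 0.05 in frontal cortex and 0 in hippocampus. The 4 were Entpd1 in Soci against Ctr0 and against Ctr1, Kcnk6 in Soci against Ctr1, and P2ry6 in Soci against Ctr0.

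Between regions, all 10 genes had slightly lower values in hippocampus than in frontal cortex, and 1 passed the test. Of all genes tested, 16.6% were called in that comparison. Entpd1 was the lower one in hippocampus, with a log2 difference from frontal cortex of -0.15 ± 0.05 (SE, edgeR adjusted p = 0.019, averaged over both phases), at a mean of 653 ± 71.5 CPM in hippocampal and 722 ± 114 CPM in cortical Day libraries (SD, n = 16), and the ranges of the regions overlapped in each phase. This call was lost without the libraries numbered 3, when 0 genes of the 10 passed, and with the scores of the other cell types. Kcnk6 followed at -0.13 ± 0.05 (edgeR adjusted p = 0.080). The median over the 10 genes was -0.068, beside -0.0046 over all genes tested. It was -0.074 over the 19 microglia markers and -0.18 over the 12 border macrophage markers, while that of choroid plexus markers was 2.94. The lower values are therefore not read as a trait of the 10 genes. Within Day or Night libraries alone, 0 of the 10 genes were called, with 1 at an unadjusted p below 0.05 in each phase (Entpd1), where 0.00622% and 13.9% of all genes were called. In those Day and Night comparisons Entpd1 gave -0.14 ± 0.07 and -0.16 ± 0.07. The day-night change did not pass a test of its difference between regions in any of the 10 genes, where 1.19% of all genes did. For Entpd1 that difference was 0.02 ± 0.10, with a 95% interval of -0.17 to 0.21, and for Kcnk6 it was -0.03 ± 0.11, with an interval of -0.23 to 0.18. All these tests treated the libraries as separate, although those of both regions may come from the same mice.

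Levels were compared between genes as CPM per kilobase of exon. P2ry13 was highest at 242 ± 46.0 (SD, n = 64), followed by Entpd1 at 99.1 ± 28.5, Kcnk6 at 48.9 ± 11.97 and P2ry6 at 30.8 ± 4.42, and each of these stood above the next in all 64 libraries. P2rx7 at 24.9 ± 2.31 and Hvcn1 at 23.9 ± 3.29 were close, with P2rx7 above in 44 of 64 libraries. Trpv2 at 9.57 ± 0.91 and Kcnk13 at 9.51 ± 1.2 were closer still, with Trpv2 above in 33 of 64 libraries. Differences between genes were not tested. Adora3 at 8.41 ± 1.18 and P2rx4 at 5.84 ± 0.66 came last, and Adora3 was above P2rx4 in every library. The level of Adora3 was taken over all its 3729 exon bases, of which 779 overlap Tmigd3. Its place below Trpv2 and Kcnk13 is therefore uncertain.

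**Figure D4:**
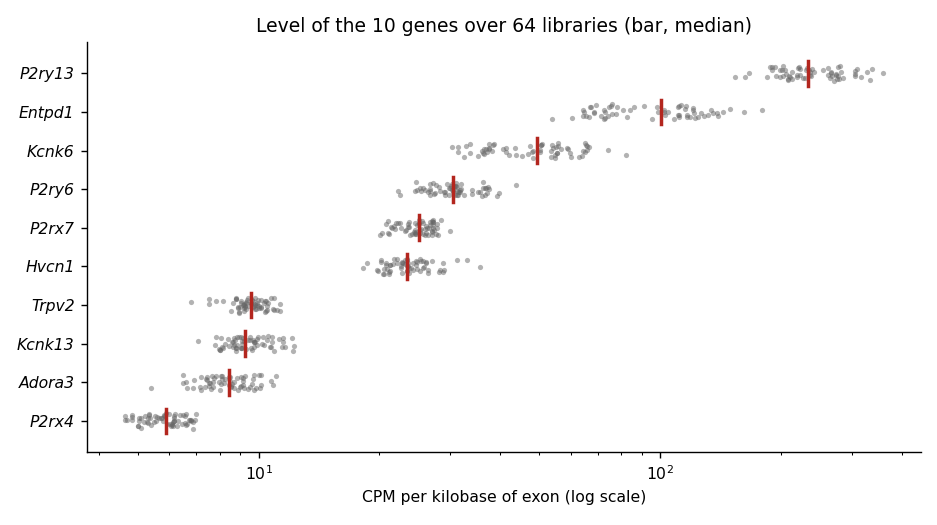
Level of each gene as CPM per kilobase of exon in the 64 libraries, on a log axis, with a red bar at the median. P2ry13 and P2rx4 mark the ends of the order at medians of 234 and 5.88, and P2rx7 with Hvcn1 and Trpv2 with Kcnk13 overlap.

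After the means of the 4 region and phase sets were removed, the 10 genes still varied together over the 64 libraries, and this variation includes what libraries share in scaling and cell content. The highest Pearson correlations of log2 CPM were those of P2ry13 with Hvcn1 at 0.78, Kcnk13 with Hvcn1 at 0.77, Entpd1 with Kcnk6 at 0.76 and Entpd1 with Adora3 at 0.76. P2rx4 stood apart, with its lowest values of -0.29 with P2ry13 and -0.20 with Kcnk13. These coefficients are a description over 64 libraries.

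Among 10940 other genes, all with a mean log2 CPM of 2 or more, those whose 16 group means were ranked most like each gene were found by Spearman correlation. For Entpd1 and Kcnk6, whose 8 highest group means were all of Day libraries, this reflects mainly the split between Day and Night. The other genes had from 5 (P2rx4) to 7 Day groups among their 8 highest, so for them it does so less. The genes most like Entpd1 were Tmem170b (0.99) and Ulk2 (0.98), and those most like Kcnk6 were Picalm (0.98) and Tlr7 (0.98). For the receptors they were Nfam1 (0.98) and Tmem173 (0.97) beside P2ry6, Casp8 (0.98) and Usp8 (0.97) beside P2rx7, Pycard (0.95) and Adcy7 (0.94) beside P2rx4, Ralgps2 (0.89) and Sirpa (0.89) beside P2ry13, and Agps (0.95) and Chsy1 (0.94) beside Adora3. For the other channels they were H2-DMa (0.95) and Ado (0.93) beside Kcnk13, Bcl2l13 (0.93) and Itgb2 (0.92) beside Hvcn1, and Slc11a1 (0.92) and Cpsf3 (0.92) beside Trpv2.

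Of 36 other purinergic receptors, nucleotide enzymes and transporters in the table, 22 were tested in each region. Of these, 4 rose and 7 fell in hippocampus and 3 rose and 6 fell in frontal cortex. The 11 and 9 called stood beside 42.2% and 41.8% of all genes tested. Relative to the microglia marker genes, 1 of the 22 was higher in each region, and 11 were lower in hippocampus and 13 in frontal cortex. The largest rises in hippocampus were those of Gpr34, a lysophosphatidylserine receptor of microglia, at 0.38 ± 0.08, Panx1, an ATP release channel, at 0.35 ± 0.07, and the ADP receptor gene P2ry12 at 0.35 ± 0.08 (log2, SE). In frontal cortex they were those of the nucleoside transporter genes Slc29a1 at 0.40 ± 0.06 and Slc29a3 at 0.19 ± 0.07 and of Gpr34 at 0.23 ± 0.09, while P2ry12 gave 0.21 ± 0.10 (edgeR adjusted p = 0.068). Slc29a1 was also called in hippocampus, at 0.31 ± 0.05, but there not relative to the microglia marker genes, at 0.06 (edgeR adjusted p = 0.12). Relative to the microglia marker genes, Gpr34 and P2ry12 turned to -0.03 and -0.04 in frontal cortex, as did Slc29a3 at -0.07, and in hippocampus Panx1 and P2ry12 gave 0.11 and 0.10, not called (edgeR adjusted p = 0.26 and 0.11). The largest falls in hippocampus were those of Enpp2, which encodes autotaxin and is abundant in choroid plexus, at -2.58 ± 0.49, the alkaline phosphatase gene Alpl at -1.04 ± 0.19 and P2rx1 at -0.86 ± 0.10. In frontal cortex they were those of Alpl at -1.07 ± 0.25 and the adenosine receptor genes Adora1 at -0.99 ± 0.22 and Adora2a at -0.96 ± 0.24. P2rx1 was also called in frontal cortex, at -0.78 ± 0.105, and Adora1 in hippocampus, at -0.59 ± 0.18. Not called were Enpp2 in frontal cortex, at -0.73 ± 0.47, and Adora2a in hippocampus, at 0.09 ± 0.21. The mean level of Adora2a was 0.89 CPM. Choroid plexus markers fell beside Enpp2 in hippocampus as given above, and 9 of 11 neuronal markers fell in frontal cortex, with a median of -1.04. The part of these cells in the falls was not tested.

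Of 44 other ion channel genes, 38 were tested, and 8 rose and 11 fell in hippocampus and 10 rose and 14 fell in frontal cortex. The 19 and 24 called stood beside 42.2% and 41.8% of all genes tested. Relative to the microglia marker genes, 2 of the 38 were higher and 25 lower in each region. The medians were then -0.21 and -0.31, beside -0.22 and -0.28 over all genes. Kcnj2, the inward rectifier of microglia, rose by 0.70 ± 0.06 in hippocampus and 0.66 ± 0.10 in frontal cortex on the log2 scale, and relative to the microglia marker genes by 0.45 ± 0.05 and 0.42 ± 0.08. Trpm2, a calcium-permeable channel opened by oxidative stress, rose by 0.49 ± 0.10 and 0.38 ± 0.08, and was not called relative to those markers, at 0.26 and 0.13 (edgeR adjusted p = 0.064 and 0.31). Kcna5 rose in hippocampus at 1.08 ± 0.26, at a mean of 1.18 CPM, and Trpv4 in frontal cortex at 0.71 ± 0.14. Not called in the other region were Kcna5, at 0.51 ± 0.26 in frontal cortex, and Trpv4, at -0.13 ± 0.14 in hippocampus (edgeR adjusted p = 0.12 and 0.49). Kcnk1, which encodes a close relative of the Kcnk6 channel, fell by 1.26 and 0.94 on the log2 scale in hippocampus and frontal cortex, at a mean of 3.31 CPM. Kcnq1 fell by 1.08 and 1.06, at a mean of 1.28 CPM. Trpc1 and Kcnab2 fell in both regions. In hippocampus and frontal cortex Trpc1 gave -0.76 ± 0.18 and -0.59 ± 0.17, and Kcnab2 -0.73 ± 0.22 and -0.81 ± 0.21. Their mean levels were 3.64 and 16.4 CPM. As given above, markers of astrocytes fell in both regions, those of choroid plexus in hippocampus and those of neurons in frontal cortex. The part of these cells in the falls of the channel genes was not tested.

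Of 35 genes of signal transduction and motility downstream of these receptors, all 35 were tested, and 22 rose and 1 fell in hippocampus and 23 rose and 1 fell in frontal cortex, with median log2 changes of 0.18 and 0.17. Relative to the microglia marker genes, 5 were higher and 16 lower in hippocampus and 3 higher and 14 lower in frontal cortex, with medians of -0.06 and -0.10. Over all genes tested, that scaling gave 415 higher and 8000 lower in hippocampus and 284 higher and 8743 lower in frontal cortex, with medians of -0.22 and -0.28. Pik3cg, the phosphoinositide kinase downstream of G protein-coupled receptors, rose by 0.50 ± 0.06 and 0.42 ± 0.06, and Itpr2, a calcium release channel of the endoplasmic reticulum, by 0.51 ± 0.05 and 0.40 ± 0.04. Relative to the marker genes Itpr2 gave 0.27 in hippocampus and, not called, 0.13 in frontal cortex (edgeR adjusted p = 0.13). The engulfment adaptor gene Elmo1 rose by 0.45 ± 0.07 in hippocampus and 0.32 ± 0.06 in frontal cortex. The G protein regulator gene Rgs2 rose by 0.42 ± 0.06 and 0.42 ± 0.07. Relative to the marker genes Elmo1 gave 0.21 in hippocampus and, not called, 0.07 in frontal cortex (edgeR adjusted p = 0.40). Itpr1 fell in both regions at -0.50, with SE of 0.09 and 0.11. In both regions at once, 22 genes of this list were called, which is 22 of the 23 called in hippocampus and of the 24 called in frontal cortex, all with the same sign. Of all genes, 42.2% were called in hippocampus and 41.8% in frontal cortex, and 1.19% differed in their day-night change between regions. The share of all genes called in both is not given here, so this overlap is not read as a trait of the list.

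**Figure D5:**
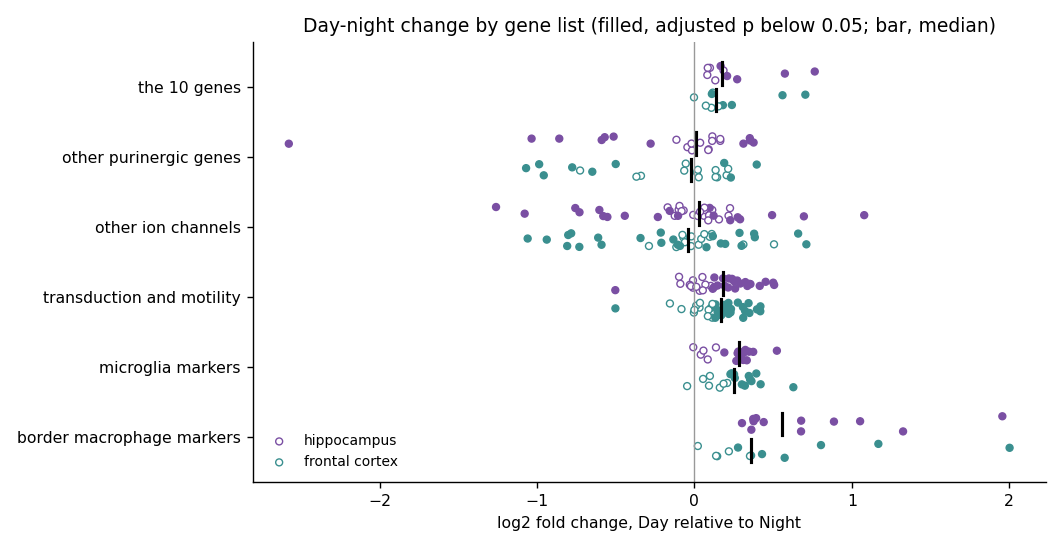
Log2 fold change, Day relative to Night and scaled by TMM, of the 10 genes, 3 lists of related genes and 2 lists of cell type markers in hippocampus (purple) and frontal cortex (teal), where filled points have an adjusted p below 0.05 and a bar marks the median. The medians of the 10 genes, at 0.18 and 0.13, lie near those of transduction and motility and below those of the microglia markers, and relative to those markers the transduction and motility median turns to -0.06 and -0.10, beside -0.22 and -0.28 over all genes.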

How the data were processed

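The authors isolated microglia with CD11b beads, depleted ribosomal RNA and sequenced total RNA. Per the labels and the submitters' processing notes, reads were mapped to GRCm38.p5 with STAR 2.7.3a and assigned to genes with featureCounts of Subread 2.0.0. The values the authors deposited are raw counts per gene. The setting for reads with several matches was not given in the sources used here. Processed pseudogenes inside introns had a median of 11.9 counts per kilobase on the strand of the host (317 genes) and 0.0203 on the opposite strand (597 genes), so counting used strand.

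Counts were tested in R 4.3.3 with edgeR 4.0.16 (quasi-likelihood), after filterByExpr and TMM scaling, with Benjamini-Hochberg adjustment over all genes tested and a threshold of 0.05. Per region, 1 fit held the phases and another the phase of each condition, and all 64 libraries shared a fit of region and phase. Log2 changes give Day over Night, or hippocampus over frontal cortex, with an SE of their size over the square root of F. CPM are scaled by TMM. Symbols, exon lengths and overlaps came from GENCODE M21, which matched 49412 of 49671 genes. No 2 libraries held identical values, and replicates differed beyond sampling noise, with chi-square values of at least 7.65 per degree of freedom.

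The 10 genes, the gene lists and the tests were chosen with earlier results of these data known. Named beside the 10 genes were, by rule, up to 3 called genes of each list and region with the strongest rise and up to 3 with the strongest fall, the 2 genes most like each gene in their group means, overlapping genes on the same strand, and Per2, Cry1 and Nr1d1. Alternatives were 4 other scalings, other count filters, DESeq2 1.42.0, terms for conditions or for the scores of 7 other cell types (the mean centred log2 CPM of each marker list), leaving out each replicate number or the libraries of outlying total, and a replicate block. The fits were tested on simulated counts. Ratios of genes were described without a test.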

Additional observations from a re-analysis of the deposited data

Results flagged for a closer look

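Among the 160 sets of 4 libraries (10 genes in 16 groups), 7 held a library far from its 3 partners by Dixon's ratio, beside the 8 that chance gives at about 1 in 20. P2ry13 stood at 702 CPM in hippocampal Day Soci replicate 2, where the others lay between 504 and 517. P2rx4 stood at 46.6 CPM in hippocampal Night Cogn replicate 3, beside 35.7 to 37.0. In the cortical Night Ctr0 libraries replicate 3 was high for both Kcnk6, at 197 CPM beside 146 to 151, and Trpv2, at 48.8 CPM beside 39.4 to 40.5. Hvcn1 accounted for the other 3, all in frontal cortex and all high, at 118 CPM in Night Cogn replicate 4 beside 70.9 to 74.0, at 103 CPM in Day Cogn replicate 1 beside 86.2 to 88.6, and at 96.5 CPM in Day Ctr0 replicate 2 beside 80.9 to 83.3. In none of the 10 genes did the day-night change differ between regions or among conditions by the tests of those differences.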

How the results depend on the processing

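In the comparison of 16 Day with 16 Night libraries, Entpd1 kept its rise and its call in both regions under every alternative run, and Kcnk6 under all but the scores of the other cell types. The number of the 10 genes called between Day and Night, 5 in each region, was 2 in each with library totals alone, 1 in hippocampus and 2 in frontal cortex with the scores of the 7 other cell types, 8 in frontal cortex relative to the microglia marker genes, and 3 in frontal cortex with TMM without the genes of over 1% of counts, without a count filter and with genes of a mean log2 CPM of 2 or more. Of all genes, 1.07% and 16.1% were called with the scores in hippocampus and frontal cortex, and 54.2% and 60.3% relative to the marker genes, beside 42.2% and 41.8%. Relative to the marker genes, only Entpd1 and Kcnk6 of the 10 were higher in cortical Day libraries. The other cortical calls under that scaling, of P2ry13, P2rx4, P2rx7, Kcnk13, Hvcn1 and Trpv2, were therefore of lower levels, as were most calls over all genes. Leaving out each replicate number gave 3 to 6 genes in each region, where the fewer libraries are part of the setting. Within single conditions the calls, 11 of 40 in hippocampus and 6 of 40 in frontal cortex, became 2 in each with totals alone, and 5 to 9 and 0 to 7 without each replicate number. With totals alone, hippocampal tests of the 4 conditions, of Soci and Cogn against the controls and of the pairs of conditions called 5, 2 and 8. The region difference, with 1 gene called, gave 4 with totals alone, 3 with TMM without the genes of over 1% of counts, 3 without the libraries of outlying total, 0 with cell type scores and 0 to 2 without each replicate number. In Night libraries alone it gave 1 with that TMM, 1 relative to the marker genes and 2 with the scores. Single genes turned direction as follows, all values being log2 differences. Relative to the microglia marker genes, hippocampal P2ry13 gave -0.0612, P2rx4 -0.143, P2rx7 -0.0805, Adora3 -0.0392, Kcnk13 -0.117, Hvcn1 -0.166 and Trpv2 -0.161, and cortical P2ry13 -0.136, P2ry6 -0.0186, P2rx7 -0.148, Adora3 -0.0685, Kcnk13 -0.108, Hvcn1 -0.144 and Trpv2 -0.184. With the scores of the other cell types, hippocampal P2ry13 gave -0.0689, P2ry6 -0.0644, P2rx4 -0.0305, P2rx7 -0.0995, Hvcn1 -0.102 and Trpv2 -0.0775, and cortical P2ry13 -0.0131 and P2rx7 -0.0229. With totals alone, hippocampal P2rx4 gave -0.0639, P2rx7 -0.000802, Kcnk13 -0.0274, Hvcn1 -0.0759 and Trpv2 -0.0855, and cortical Trpv2 -5.33e-05. Cortical P2rx4, near 0, gave 0.00601 with median-of-ratios size factors, 0.00116 without a count filter, 0.0347 without the libraries of outlying total, 0.00578 with DESeq2, 0.00414 with conditions as terms and -0.0358 to 0.0469 without each replicate number. The causes were not tested. The numbers were not taken to pair the libraries. The labels do not say that they do, and not every pair's correlation of deviations was above 0.1. Between Day and Night, 4 of 16 hippocampal pairs with the same number and condition were above it (median -0.027) and 10 of 16 cortical ones (median 0.112), beside 19 and 14 of 48 with different numbers. Between regions it was 9 of 16 in Night (median 0.262) and 3 of 16 in Day (median -0.265), beside 14 and 23 of 48 (medians -0.038 and 0.052). These correlations cannot show whether libraries of both regions share mice. The study describes dissecting hippocampus and frontal cortex from the removed brains, so they may. The tests between regions treated all 64 libraries as separate. With the number as a replicate block, 5 genes were called in each region, and the block changed no count of the 10 genes by more than 1.5 times. Depth did not limit the 10 genes, each with at least 275 counts in every library. The ratios and the recount of the gene lists under other scalings were added after the values were seen.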
